A study of Mus musculus with 6 samples.

Results

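The genes that encode NF-κB and the proteins that restrain it were examined at their promoters in mouse colonic organoids, epithelial cultures of C57BL/6 origin kept untreated (wt) or exposed for 3 weeks to TNFα at 40 ng/ml (wt+TNFα). The 10 genes were chosen by name, for their role in the pathway, and with earlier results of these data known. They were the subunits Nfkb1, Nfkb2, Rela, Relb and Rel, and the inhibitors Nfkbia, Nfkbib, Nfkbie, Nfkbiz and Tnfaip3. All 10 were found among the 55341 gene symbols of the GENCODE annotation of GRCm38. The question was what a long exposure to TNFα does to the histone marks at the genes of the pathway that TNFα itself switches on. ChIP-seq had been run for H3K4me3, a mark of active promoters, and H3K27me3, a mark of Polycomb repression, with 1 library per mark and condition, and the deposited peaks were used. With 1 library on each side, no difference has a replicate behind it and no p-value is given. The organoids of a library were pooled from several culture wells, and the labels do not give the number of mice behind them. With 1 library a side, TNFα and any difference between the cultures cannot be told apart.

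Promoters reached 1000 bp to either side of all annotated transcript starts, and a peak was counted if 1 bp or more of it lay there. The width of a mark is the summed length of the peaks that touch a gene's promoters. The wt+TNFα H3K4me3 list was the more generous of the pair, with 11894 peaks against 11552 and a median peak width of 1510 bp against 1404 bp. The study also states many more total reads for that library and for its input, and the part of depth in the widths was not tested. Each member is therefore set against all genes with a peak in both conditions. The libraries also differed on the sex chromosomes: H3K27me3 peaks took up 0.597 Mb of X without TNFα and 74.7 Mb with it, and the number of Y peaks of H3K4me3 was 3 without and 0 with TNFα. All 10 genes lie on autosomes. All 8 epithelial markers examined (among them Epcam, Cdh1, Vil1 and Cdx2) carried H3K4me3 in both conditions, and none of the 6 immune, 6 fibroblast or muscle and 4 endothelial markers did in either, Ptprc, Col1a1 and Pecam1 included.

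NF-κB is a family of transcription factors that bind DNA as pairs of subunits through a shared Rel homology domain. In resting cells the IκB proteins hold the pairs in the cytoplasm. Signals such as TNFα activate the IκB kinase complex, IκB is degraded, and the freed factor enters the nucleus and turns on inflammatory and survival genes. Among the genes it turns on are those of its own inhibitors, which makes the response self-limiting, and mice that lack A20, the product of Tnfaip3, in the intestinal epithelium are known to be prone to colitis.

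The promoters of several members hold the short sequence that NF-κB recognises, which is why they are shown first. The κB motif of 10 bases was searched by its consensus on both strands, with overlapping matches joined, in the RefSeq promoter table of GRCm38.p6, whose entries run from 250 bases before a transcript start to 50 after it. The table matched 7 of the 10 genes. Nfkb1, Relb and Nfkbiz had no entry. Of the 7, 5 held at least 1 κB match (Nfkb2, Rel, Nfkbia, Nfkbie and Tnfaip3), and Rela and Nfkbib held none, against 5.14% of all 27025 genes with an entry. Nfkb2 and Tnfaip3 held 2 matches in the same entry, as did 0.196% of all genes. Nfkb2 held further matches at its later starts. The 29 or 30 bases around each match are given below in the direction of transcription, with the κB match in capitals. The Tnfaip3 windows lie at chr10:19015516-19015545 and chr10:19015403-19015432 on the minus strand, where the matches begin 125 and 12 bases before the RefSeq start, and both are in an intron of a longer GENCODE transcript that starts further upstream. The Nfkb2 windows lie at chr19:46304689-46304717 and chr19:46304716-46304745 on the plus strand, with matches that begin 39 and 11 bases before the RefSeq start, inside an annotated exon. In the Rel window, at chr11:23771042-23771070 on the minus strand, the match begins 92 bases before the start.
Tnfaip3, upstream match: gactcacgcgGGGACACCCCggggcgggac
Tnfaip3, match next to the start: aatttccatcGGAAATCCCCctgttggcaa
Nfkb2, upstream match: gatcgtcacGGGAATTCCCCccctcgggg
Nfkb2, match next to the start: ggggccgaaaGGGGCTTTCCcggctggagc
Rel: gtaagcagcGGGAAATCCCCccccctccc

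For Nfkbia and Nfkbie, the 2 IκB genes with a match, the whole 250 bases before the RefSeq start are given, again with the κB match in capitals. The Nfkbia stretch is chr12:55492648-55492897 on the minus strand, with the match 29 to 20 bases before the start, and the Nfkbie stretch is chr17:45555450-45555699 on the plus strand, with the match 106 to 97 bases before it. Every κB match in these entries lay under an H3K4me3 peak in both conditions. So did all 300 bases of the Rela and Nfkbib entries, which held no match, so this cover is not particular to the motif.
Nfkbia: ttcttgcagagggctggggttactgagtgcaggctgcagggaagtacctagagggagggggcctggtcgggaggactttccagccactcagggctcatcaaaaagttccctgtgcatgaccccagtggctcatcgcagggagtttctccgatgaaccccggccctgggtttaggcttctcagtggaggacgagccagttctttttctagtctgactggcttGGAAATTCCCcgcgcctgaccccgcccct
Nfkbie: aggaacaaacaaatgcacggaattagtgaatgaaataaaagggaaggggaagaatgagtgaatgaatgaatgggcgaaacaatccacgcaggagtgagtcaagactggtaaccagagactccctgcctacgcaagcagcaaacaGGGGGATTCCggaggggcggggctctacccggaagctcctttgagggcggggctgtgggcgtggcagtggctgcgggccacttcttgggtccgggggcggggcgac

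All 10 genes carried H3K4me3 at the promoter in wt organoids and again in wt+TNFα organoids, and none carried H3K27me3 there in either. Among all genes, 24.3% had a promoter H3K4me3 peak in wt and 24.7% in wt+TNFα, and among protein-coding genes 50.5% and 51.2%. The lists hold 20 stretches of at least 4 Mb with no peak of either mark, in which 2.36% of all genes and none of the members start, and the cause was not tested. Without those genes the H3K4me3 shares were 24.8% and 25.3%. The H3K4me3 of every member was wider in wt+TNFα, but the same was so for 75.9% of the 13201 genes with a peak in both conditions, so the direction alone sets the members little apart. The amount differed more. The median width ratio of wt+TNFα to wt was 1.22 over the 10 members and 1.07 over all those genes, and 4 members (Tnfaip3, Nfkbiz, Nfkbie and Nfkbia) were wider by at least 1000 bp, against 2.05% of all genes. The 1000 bp count was added after the data were seen. A ratio of at least 1.5 was reached by Nfkbie and Tnfaip3, against 4.13% of all genes. The inhibitors ran from 1.22 to 2.40 with a median of 1.32, and the subunits from 1.02 to 1.23 with a median of 1.08, so the ranges met at Nfkbib and Nfkb1. These contrasts depend on how the width of Tnfaip3 and Nfkbiz is taken, since both had 2 separate peaks in wt. By the outer span, from the first peak edge to the last with the bases between included, the median ratio was 1.14 over the 10 members and 1.06 over all genes. The inhibitors then ran from 1.03 to 2.40 with a median of 1.22, Tnfaip3 and Nfkbiz falling below Nfkb1 and Nfkb2, and 2 members (Nfkbie and Nfkbia) were wider by at least 1000 bp, against 2.30% of all genes. In a pool of cells, a mark on more cells and a mark that spread further along each copy cannot be told apart.

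**Figure D1:**
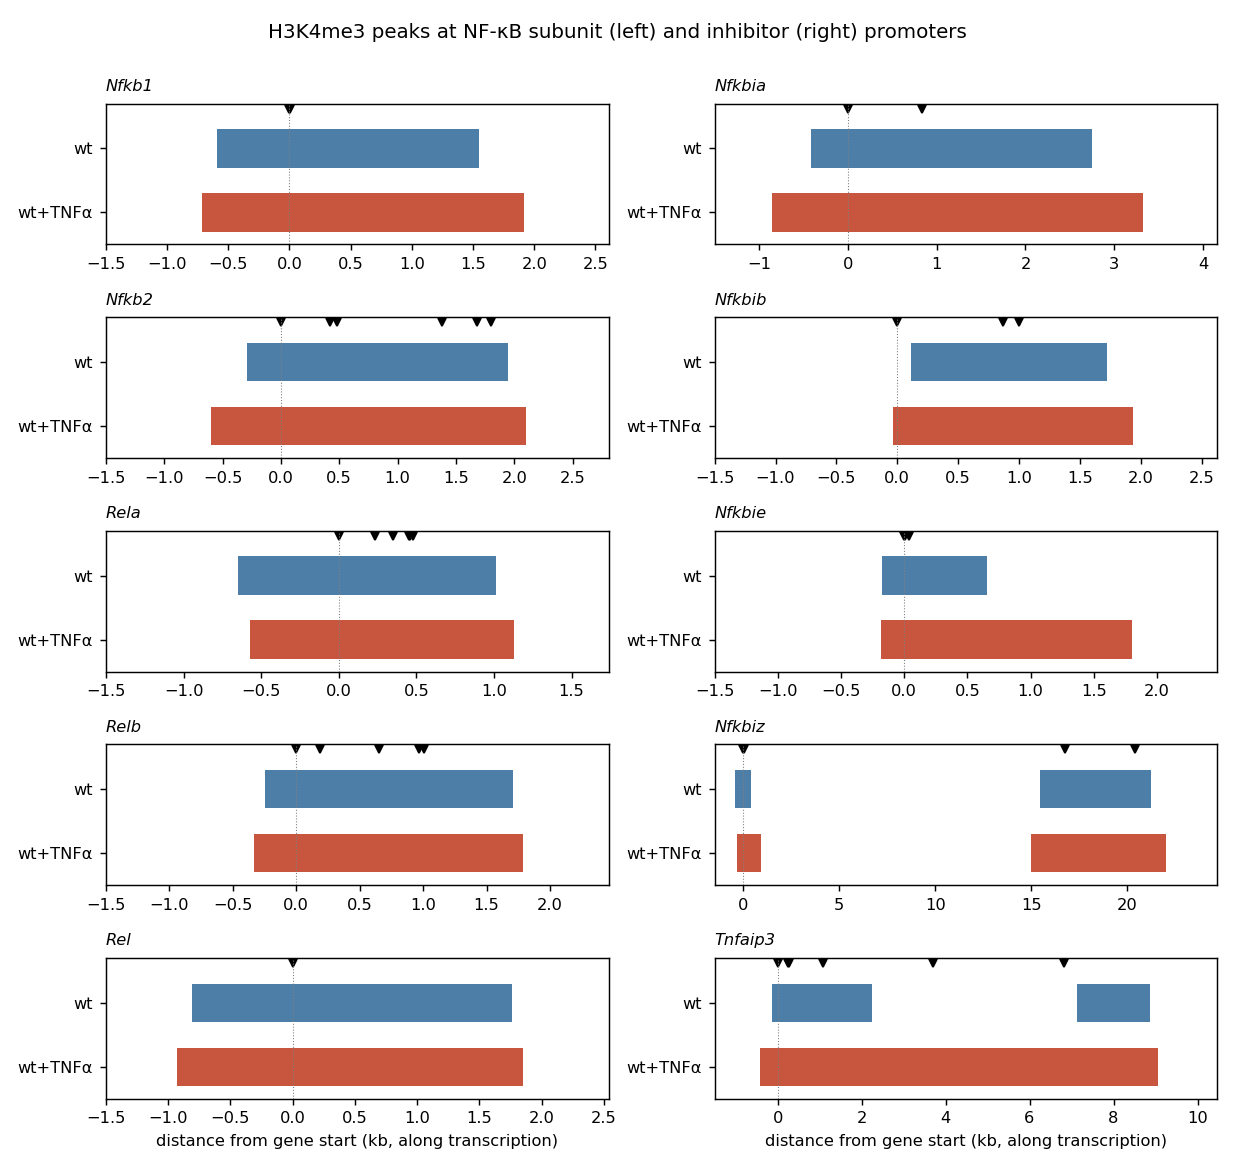
H3K4me3 peaks at the promoters of the 5 subunits (left) and the 5 inhibitors (right), drawn as bars along the distance from the gene start in kb for wt and wt+TNFα, with black triangles at annotated transcript starts within the drawn range. At Tnfaip3 the 2 wt peaks lie inside 1 wt+TNFα peak of 9484 bp, and at Nfkbie the wt+TNFα peak reaches 1147 bp further into the gene.

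Tnfaip3 encodes A20, an enzyme that edits ubiquitin chains on the signalling complexes below the TNF receptor and so shuts the signal down. The gene is at 19000910 to 19015657 of chromosome 10, minus strand. In wt it had 2 separate H3K4me3 peaks, one of 2366 bp at the main start and one of 1744 bp further into the gene, 4110 bp in all. In wt+TNFα a single peak of 9484 bp ran from 415 bp before the start to 9068 bp after it, a ratio of 2.31. The gain of 5374 bp was the largest of all 13201 genes. At least 2 wt peaks overlapped 1 wt+TNFα peak in 0.462% of them, where a gene with 1 wt peak could not be counted. Most of the gain was the 4880 bp between the 2 wt peaks, of which 793 bp were exon and 4087 bp intron, and which holds annotated transcript starts 3694 bp and 6812 bp after the main one. The outer edges lay 291 bp further out upstream and 203 bp downstream, small beside that interval but more than the medians over all genes of 38 bp and 58 bp. From the first edge to the last, the marked stretch spanned 8990 bp in wt and 9484 bp in wt+TNFα, a ratio of 1.05, and by the added bases so counted Tnfaip3 ranked 979 of 13201. Against the strongest wt peak alone the ratio was 4.01. The difference lay mainly in the interval between the wt peaks. A wt interval without a called peak is not shown to lack the mark, since only the peaks above the authors' threshold were deposited. In wt+TNFα 24 genes had H3K4me3 at least as wide as that of Tnfaip3, and in wt 415 genes.

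Nfkbie encodes IκBε, a cytoplasmic inhibitor that is itself resynthesised after NF-κB activation. It is at 45555703 to 45563169 of chromosome 17, plus strand. Its H3K4me3 peak was 825 bp wide in wt, above only 16.5% of the peaks in its list, and 1981 bp wide in wt+TNFα, above 71.0% of them. The ratio of 2.40 was above that of 99.4% of all genes. The upstream edge was in nearly the same place, 172 bp before the start in wt and 181 bp in wt+TNFα. The downstream edge moved from 652 bp to 1799 bp after the start, and all of the added 1147 bp was intron. A narrow peak reaches a high ratio with fewer added bases. Among the 1407 genes whose wt width lay within 20% of that of Nfkbie, 8.53% reached a ratio of 1.5 and 1.07% that of Nfkbie.

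The stretch that Nfkbie gained holds 2 κB matches, which begin 921 bp and 969 bp after the gene start, and the stretch that Tnfaip3 gained between its wt peaks also holds 2, at 6217 bp and 6812 bp. The intronic ones are shown because they lie in bases called under H3K4me3 in wt+TNFα alone. The windows are chr17:45556614-45556643 and chr17:45556662-45556691 on the plus strand for Nfkbie and chr10:19009421-19009450 on the minus strand for the intronic Tnfaip3 match, all read from GRCm38.p6. Of 132 windows of 4880 bp cut from wt+TNFα H3K4me3 peaks, 62.1% held at least 1 match and 28.8% at least 2. Of 11455 windows of 1147 bp, 19.9% held at least 1 and 2.83% at least 2. Only pieces of at least 400 bp in genes with a promoter entry were searched, so those of Nfkbiz were not. A match describes the letters and not a bound site.
Nfkbie, first intronic match: cctgggaagaGGAATTCCCCcgcaaccaat
Nfkbie, second intronic match: gttgggggaaGGAATGTCCCtgtttgctca
Tnfaip3, intronic match: tcttcgcactGGGGAATTCCacatgttact

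Nfkbia encodes IκBα, the inhibitor that is rapidly degraded when the pathway is switched on and rapidly remade. It is a short gene, at 55489410 to 55492647 of chromosome 12, minus strand. Its H3K4me3 peak was 3173 bp wide in wt and 4182 bp in wt+TNFα, a ratio of 1.32. Both edges lay further out with TNFα, by 434 bp upstream and by 575 bp downstream, and the downstream piece held 483 bp of exon and 92 bp past the end of the gene. In wt+TNFα the mark thus covered the gene from end to end, while in wt it stopped 2754 bp after the start. The upstream piece of 434 bp held 1 κB match, as did 7.94% of windows of that length, and the downstream piece none.

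Nfkbiz encodes IκBζ, an atypical family member that acts in the nucleus and helps NF-κB at a subset of genes. It occupies 55811375 to 55838899 of chromosome 16, minus strand, and has annotated starts at its outer end and again 16761 bp and 20384 bp inside it. At the outer start the peak was 847 bp wide in wt and 1234 bp in wt+TNFα, and the fold enrichment, the ChIP signal over the local background estimated from the input, was 9.01 and 14.6. At the inner starts the peak was already 5794 bp wide in wt, above 99.7% of the peaks in its list, and 7001 bp wide in wt+TNFα. The inner peak was thus far the wider and the stronger with and without TNFα, enriched 47.1-fold without it and 38.9-fold with it. Its edges lay further out by 467 bp on the upstream and 740 bp on the downstream side, nearly all intron. At the outer start 490 bp were added on the gene side and 103 bp were called in wt alone on the other.

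Nfkbib encodes IκBβ, which binds similar NF-κB pairs to IκBα and is degraded more slowly. Its position is 28758251 to 28767512 of chromosome 7, minus strand. Its peak was 1611 bp wide in wt and 1971 bp in wt+TNFα, a ratio of 1.22, with 149 bp added upstream and 211 bp downstream. The same peak covers the start of Sirt2, which runs the other way from 95 bp away, so the mark cannot be assigned to either gene.

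Of the subunits, Nfkb1 and Nfkb2 had width ratios near that of Nfkbib, and the other three had lower ones. Nfkb1, whose precursor protein is cut to a DNA-binding subunit that lacks an activation domain, occupies 135584655 to 135691547 of chromosome 3, minus strand. Of its 10 annotated starts, those at the 5′ end carried the only H3K4me3 peak, 2149 bp wide in wt and 2634 bp in wt+TNFα. The peak was wider by 120 bp upstream and by 365 bp of intron downstream, a ratio of 1.23. Nfkb2, the precursor gene of the non-canonical pathway (chromosome 19, 46304320 to 46312385, plus strand), went from 2242 bp to 2699 bp, a ratio of 1.20. Of the added bases, 304 bp lay upstream and 153 bp downstream, all of the latter in exon. A noncoding gene transcribed the other way, AC114539.1, starts 85 bp from Nfkb2 and shares the peak.

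Rela, Relb and Rel encode the subunits with an activation domain. Their H3K4me3 was close to the change of the typical gene. Rela (chromosome 19, 5637483 to 5648130, plus strand) was 1662 bp wide in wt and 1699 bp in wt+TNFα. Its ratio of 1.02 was the lowest of the 10 and below the median of all genes. The peak of Rela was shifted more than it was widened, 76 bp shorter upstream and 113 bp longer downstream. Relb (chromosome 7, 19606217 to 19629438, minus strand) went from 1953 bp to 2118 bp, and Rel (chromosome 11, 23736847 to 23770970, minus strand) from 2573 bp to 2782 bp, both with a ratio of 1.08. The edges of both lay 76 bp to 116 bp further out, against medians over all genes of 38 bp upstream and 58 bp downstream.

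**Figure D2:**
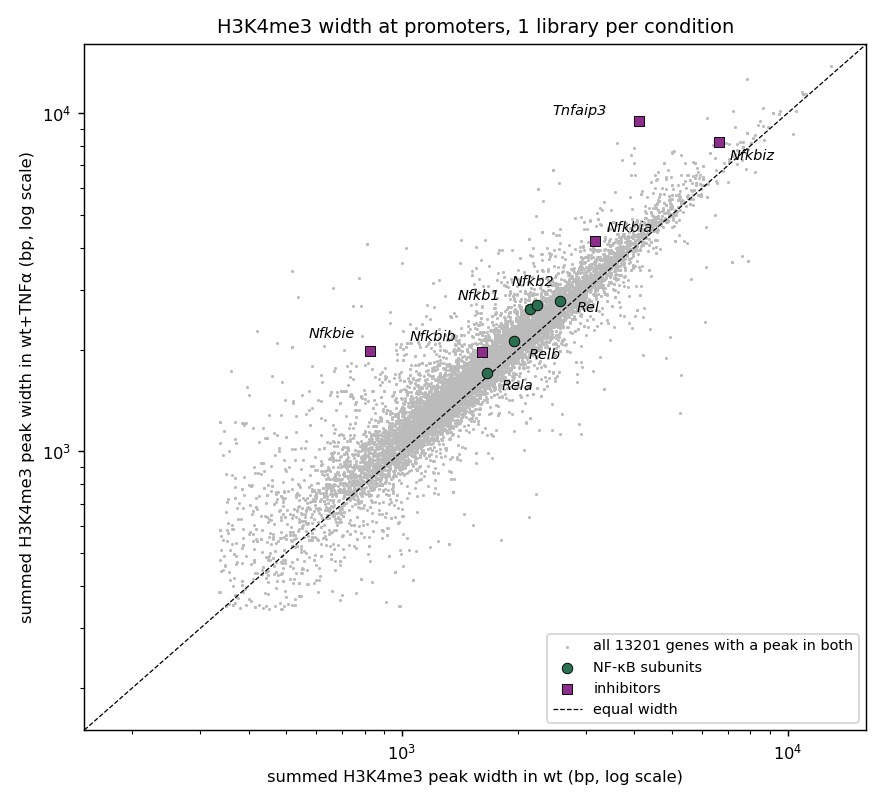
Summed H3K4me3 peak width at the promoters in wt (horizontal, bp, log scale) and wt+TNFα (vertical, bp, log scale), with 1 grey point per gene with a peak in both conditions, green circles for subunits and purple squares for inhibitors. Of the 10 members, Nfkbie and Tnfaip3 lie furthest above the dashed line of equal width, with ranks of 73 and 83 of 13201 by ratio, and Rela lies nearest to it.

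Seen by edge, the wt+TNFα peaks lay further out downstream in 10 of 10 members, against 71.5% of all genes, and further out upstream in 8, against 67.7%. Both edges lay further out in 8 members and in 50.1% of all genes. The exceptions were Rela and the outer start of Nfkbiz, whose upstream edges lay 76 bp and 103 bp further in. Within the promoters themselves, bases called in wt+TNFα alone were found in 10 of 10 members (78.6% of genes with a wt+TNFα peak), from 113 bp at Rela to 3602 bp at Tnfaip3. Bases called in wt alone were found at Rela and Nfkbiz (41.0% of genes with a wt peak). No member had a whole H3K4me3 peak in one condition that did not overlap a peak of the other.

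Fold enrichment was computed for each library separately and was therefore ranked within its own list. The members spanned a wide range. In wt the strongest promoter peak of Nfkbiz stood above 93.0% of the peaks in its list, that of Nfkb1 above 85.9%, and that of Nfkbie above only 36.7%. With TNFα the order changed. Tnfaip3 went from 66.2% to 96.7%, on fold enrichments of 31.1 and 51.3, and then stood highest of the 10. Nfkbib went from 40.8% to 66.1% and Rela from 52.6% to 73.0%. Nfkbia went the other way, from 75.5% to 55.0%, although its peak was wider, and Relb, Rel and Nfkbiz also ranked lower by 12.3 to 14.2 points. A higher rank in wt+TNFα was found in 5 of 10 members and in 53.9% of all genes. A rise of at least 20 points was found in 3 members and 12.7% of genes, and a drop of that size in 1 member and 9.58% of genes. Among the most widened members both patterns were seen. Nfkbie, with the highest width ratio, went from 36.7% to 31.9%, and Tnfaip3, with the next highest, had the largest rise of the 10, by 30.5 points.

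**Figure D3:**
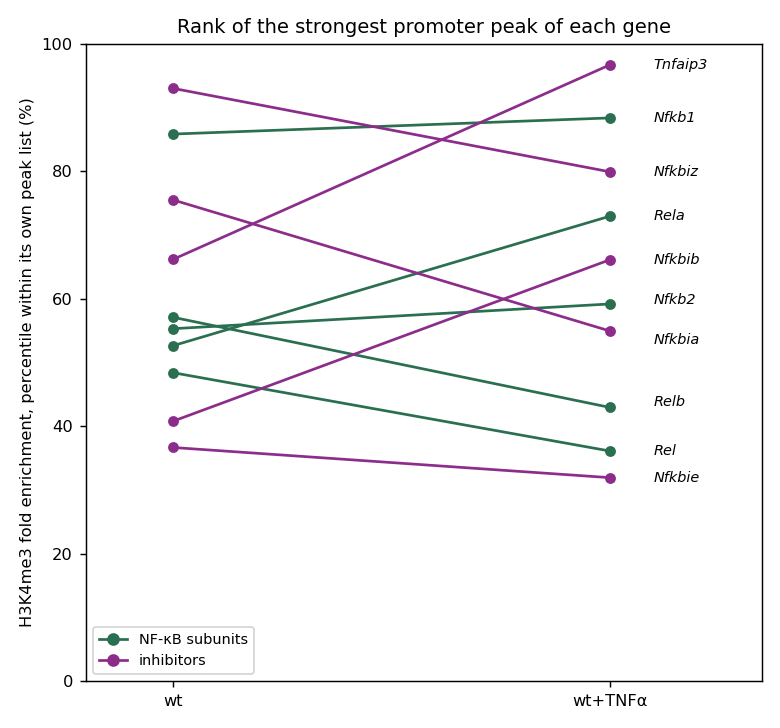
Percentile of the fold enrichment of each gene's strongest promoter H3K4me3 peak within its own peak list, in wt and wt+TNFα, with 1 line per gene, green for subunits and purple for inhibitors. Tnfaip3 is at 66.2% in wt and highest at 96.7% in wt+TNFα, while Nfkbia is at 75.5% and 55.0%.

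H3K27me3 covered 0% of the promoters of all 10 genes in both conditions, against a promoter peak in 14.2% of all genes in wt and 23.2% in wt+TNFα. Among genes with H3K4me3 in both conditions, a more like group, these shares were 9.14% and 12.9%, so most genes of that group lacked the mark too. The nearest H3K27me3 peak lay from 0.755 kb (Nfkbie) to 207 kb (Rel) from the promoter in wt and from 0.258 kb (Nfkbie) to 103 kb (Relb) in wt+TNFα. The wt+TNFα list was much the larger, with 60540 H3K27me3 peaks against 30594 and, outside chromosome X, 228 Mb covered against 101 Mb, so a nearer or wider domain at 1 gene cannot be told apart from this general difference. Nfkbie had the nearest domain. Upstream of it in wt was a domain of 31010 bp, enriched 3.37-fold, whose end was 755 bp from the promoter. In wt+TNFα the domain was 31845 bp wide, enriched 3.84-fold, and ended 258 bp from it. With promoters of 2000 bp to either side, Nfkbie was the 1 member with H3K27me3, with 6.09% of the bases covered in wt and 18.4% in wt+TNFα. At Nfkbie the added H3K4me3 lay on the other side, downstream. Downstream of Nfkb2, a domain of 11930 bp in wt and 11700 bp in wt+TNFα lay 8.15 kb and 8.48 kb from the promoters. The other nearest peaks of the inhibitors were at least 8.48 kb away.

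**Figure D4:**
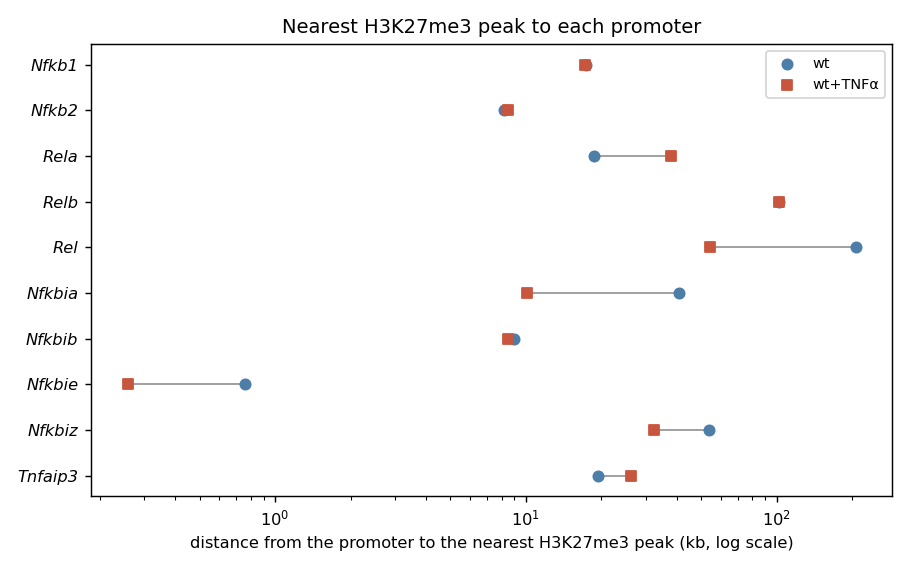
Distance in kb (log scale) from the promoter of each gene to the nearest H3K27me3 peak in wt (blue circles) and wt+TNFα (red squares). Nfkbie is the only gene within 1 kb, at 0.755 kb in wt and 0.258 kb in wt+TNFα.

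The other genes of the pathway were grouped by role in lists of textbook genes, also chosen with earlier results of these data known. Of 14 TNF receptors and adaptors, 12 carried H3K4me3 in both conditions, with a median width ratio of 1.07, equal to that of all genes. Tradd, the adaptor that docks on the TNF receptor, had the highest ratio at 1.48 (1939 bp in wt and 2873 bp in wt+TNFα), followed by the second TNF receptor gene Tnfrsf1b at 1.34. The main receptor gene Tnfrsf1a had the lowest, 0.973, and Traf5 had 1.02. The other 2 genes, Traf1 and Cd40 (named after their values were seen), carried H3K27me3 and no H3K4me3 in both conditions. Of the 10 kinase genes all carried H3K4me3 in both conditions, with a median ratio of 1.05. Ikbke, an IκB kinase relative, went from 1418 bp to 2309 bp (1.63), and the catalytic Ikbkb was at 1.00. Ikbkg, the regulatory subunit, had a ratio of 1.63 and Tab3 of 0.770. Both lie on chromosome X, and H3K27me3 covered 0% of their promoters in wt and 87.2% and 100% in wt+TNFα, with the chromosome-wide difference given above.

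Of 12 further nuclear IκB proteins and negative regulators, all carried H3K4me3 in both conditions and none H3K27me3, and the median ratio was 1.04, with 9 of the 12 wider in wt+TNFα, a share close to the 75.9% of all genes. Tnip1, the partner of A20 at ubiquitin chains, went from 2138 bp to 4252 bp, a ratio of 1.99, and Zc3h12a, a nuclease that destroys cytokine mRNA, from 2970 bp to 4766 bp, a ratio of 1.60. Nfkbid, a nuclear IκB, was at 0.869 and the deubiquitinase Otulin at 0.991. Of the 12, Tnip1 and Zc3h12a were the ones that reached a ratio of 1.5, as did 4.13% of all genes.

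The 25 target genes differed from the members in kind. Their list was drawn up with earlier results of these data known, so its counts beside the shares of all genes are descriptive. Only 7 carried H3K4me3 in both conditions, and a further 7 carried it in wt+TNFα alone: Cxcl2, Ccl20, Icam1, Ltb, Ptgs2, Nos2 and Plau. None carried it in wt alone. Over all genes, 0.851% had a promoter H3K4me3 peak in wt+TNFα alone and 0.407% in wt alone, and none of the 10 members did. The widest of these 7 peaks was that of Nos2, the inducible nitric oxide synthase, at 5352 bp and 21.4-fold enriched. The promoters of Nos2, Icam1 and Plau were covered by H3K27me3 over 53.8%, 52.0% and 87.8% in wt and 0% in wt+TNFα. A drop of at least 50 points was found in 0.497% of all genes. Csf2 went from 46.2% to 100%, with no H3K4me3 in either condition, a rise of at least 50 points as in 7.31% of all genes. Tnf itself had a peak in both conditions, 1247 bp wide in wt and 3217 bp in wt+TNFα, enriched 9.85-fold and 32.2-fold, with a ratio of 2.58, the highest of the list. The chemokine gene Cxcl1 had 1.44, the stress-response gene Ier3 1.24, and the mitochondrial superoxide dismutase gene Sod2 the lowest at 0.871. The remaining targets had no H3K4me3 peak in either condition.

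**Figure D5:**
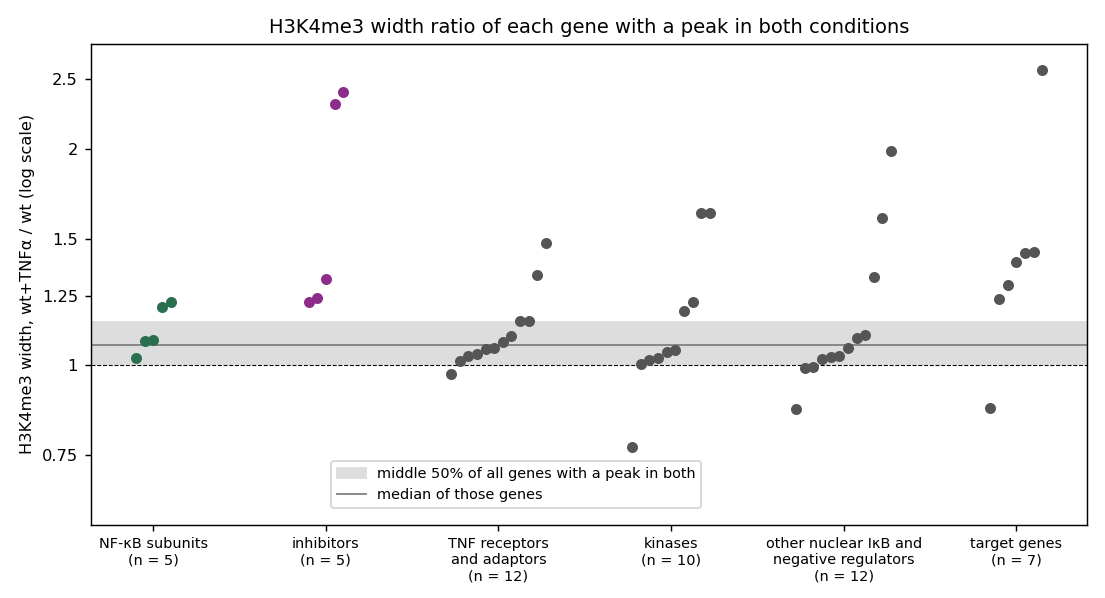
H3K4me3 width in wt+TNFα divided by that in wt (vertical, log scale), with 1 point per gene that had a peak in both conditions, for the 5 subunits, the 5 inhibitors and the 4 further lists. The grey band is the middle 50% of all genes with a peak in both, from 1.00 to 1.15. By this summed width all 5 inhibitors lie above the band, as do 2 of the 5 subunits, while by the outer span 3 inhibitors (not Tnfaip3 or Nfkbiz) are above the corresponding range of all genes.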

How the data were processed

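Mouse colonic organoids (wt and wt+TNFα) were profiled by ChIP-seq, with 1 library per mark and condition, grouped by the sample titles. The labels give the same planned depth for a mark in both conditions, but the study states many more total reads for the wt+TNFα H3K4me3 library. The depth behind each list cannot be read from the lists. The inputs and the reads were not analysed here. Per the methods, alignment to GRCm38/mm10 was done by the authors with bwa-mem. After removal of duplicates and of blacklisted regions, MACS2 called narrow (H3K4me3) or broad (H3K27me3) peaks over the matching input. The submitters' processing notes name BWA 2.2, SAMtools 1.11 and MACS2 2.1.0, and another source of the study names a different MACS2 version. The names of 3 of the 4 lists mention a spike-in, which the wt+TNFα H3K27me3 list does not.

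In the deposited lists, fold enrichment is a ratio of ChIP to local background. The deposited −log10 p and −log10 q are per library, as is the deposited display score, which was not used. Summit positions were not compared.

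Peaks were set against 55450 GENCODE vM21 genes with Python 3.11.15 and numpy 2.4.6. Figures used matplotlib 3.10.9. No peak reached past a chromosome end of the reference. Simulated lists with 200 planted changes of each kind among 1000 genes served as a test, and all changes were recovered. The members and lists were chosen with earlier results of these data known. Of the pathway genes, those with a peak in 1 condition alone, with a change of at least 50 points in H3K27me3 cover, or with the highest and lowest width ratios were named. The alternatives were 500 bp and 2000 bp promoters, 1 start per gene, an overlap of 200 bp, stricter or equal peak lists, a −log10 q minimum of 2 for H3K27me3, whole peaks subtracted and the strongest peak alone. The outer span, each gene's ratio from the strongest peak, and the shares without peakless stretches were added after the data were seen. So was the count of members wider by at least 1000 bp, with all its alternatives.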

Additional observations from a re-analysis of the deposited data

How the results depend on the processing

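No paired analysis was possible because there was a single library for each mark and condition, and no test to block. All 10 genes kept a width ratio above 1 in every alternative that could give one, 76 in all, and 68 of these values were unchanged. Tnfaip3 depended most on how width is measured, with 4.01 for the strongest peak, for 1 start per gene and for peaks above the median −log10 q, and 1.05 for the outer span. Nfkbiz had 1.46 with 1 start per gene, 1.21 with the strongest peak or with peaks above the median, and 1.03 with the outer span. Wider H3K4me3 was called in 6 members with peaks above the median, where the other members kept no peak in at least 1 condition. A ratio of at least 1.5 was then reached by 1 member, and by 1 with the outer span, by which 2 members were wider by at least 1000 bp in place of 4. Gained promoter bases were called in 6 members at an overlap of 200 bp and in 0 with whole peaks subtracted. Lost bases were called in 1 with 500 bp promoters and in 0 under both of those settings. With 2000 bp promoters, 1 member, Nfkbie, had H3K27me3 in wt and in wt+TNFα, over 6.09% and 18.4% of the promoter, which makes 1 member with more H3K27me3 in wt+TNFα. Bases outside a peak may carry the mark below the authors' threshold, and the part of depth in the calls was not tested.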
